A study of Mus musculus with 4 samples.

Results

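The genes described here encode fibronectin and 7 matricellular or related matrix proteins: Fn1, Tnc, Thbs1, Thbs2, Thbs3, Postn, Sparc and Tgfbi. They were taken by gene symbol from the deposited gene tables, in which all 8 were found among the 18298 genes that had reads in any sample. They were measured by RNA sequencing in primary chondrocytes from the ribs of E18.5 embryos on a C57BL/6 background, cultured to passage P1. The 2 WT samples were Senp6f/f without Cre, and the 2 Senp6-Mut samples were Dermo1-Cre;Senp6f/f, so both groups carried the floxed allele of Senp6, which encodes a desumoylase. Dermo1-Cre expresses Cre recombinase from the Dermo1 (Twist2) locus in skeletal progenitors, and since WT samples had no Cre, an effect of Cre itself and the loss of Senp6 cannot be told apart. The labels do not say whether samples of a group came from separate embryos or cultures, so the p values measure the spread between these samples, which in WT may be technical. The mutant samples differed in embryo sex, by their Xist counts, and so did not come from the same embryo.

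Fibronectin is a dimeric glycoprotein that cells assemble into fibrils through integrins, and it serves as a scaffold on which other matrix proteins are laid down. Matricellular proteins are secreted into the same matrix but are known mainly as regulators: they bind receptors, growth factors, proteases and collagens, and they are typically made at high levels during development, repair and remodelling. In the skeleton they are found in cartilage, perichondrium and bone, where they act in cell adhesion, collagen fibril formation and the release of TGF-β from its latent complex.

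The samples held between 21007449 and 30983806 reads on the genes tested. Senp6 itself had 1125 and 2326 reads in WT and 1839 and 1126 in Senp6-Mut, which overlapped (log2 fold change −0.56, SE 0.28, edgeR adjusted p = 0.410). Counts were given per gene and not per exon, so the floxed exons were not examined and the genotype labels were not checked by them. Xist had 11354 reads in Senp6-Mut replicate 2 and between 2 and 5 in the other samples. The Y-linked gene Ddx3y had 3 reads in that sample and 818 to 1601 in the others. By these genes Senp6-Mut replicate 2 was female, while Senp6-Mut replicate 1 and both WT samples were male. Sex was thus not balanced between genotypes, and its part in the differences was not tested. The chondrocyte label was compared with the level of cartilage genes, chosen after their values were seen: the cartilage collagen gene Col2a1 had an RPKM of 609 and 659 in WT and 334 and 445 in Senp6-Mut, while Col1a1, typical of bone and fibrous tissue, had 7253 and 4961 in WT and 4828 and 3311 in Senp6-Mut.

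All 8 genes were expressed well above the limit of detection, with 1746 reads or more in every sample, and between 94.29% and 100% of the gene length was covered by reads. Their levels are given as RPKM, reads scaled by gene length and by all reads on genes in the sample, so that they can be compared between genes. Sparc stood first in every sample, with 2596 and 2226 RPKM in WT and 2171 and 2061 in Senp6-Mut, and it was among the 10 most highly expressed genes of each sample. Fn1 was second in every sample. Thbs3 was last, with 19.9 to 26.9 RPKM. In WT, Thbs1 and Postn came next after Fn1 and their values overlapped, followed by Thbs2, Tgfbi and Tnc. In Senp6-Mut the order of the means was Sparc, Fn1, Thbs1, Postn, Thbs2, Tnc, Tgfbi and Thbs3, and no neighbours in this order overlapped. Tnc and Tgfbi thus exchanged places between the genotypes.

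**Figure D1:**
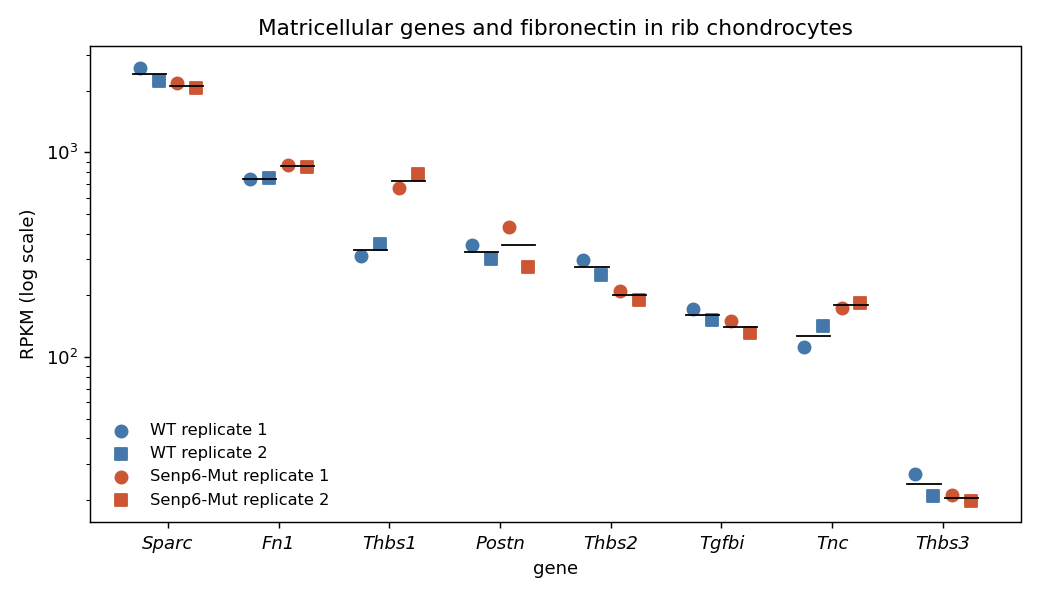
RPKM (log axis) of each gene in the 4 samples, with WT in blue and Senp6-Mut in red, replicate 1 as circles, replicate 2 as squares and a black bar at the mean of each group. Thbs1 shows the widest gap between genotypes, from 311 and 357 in WT to 669 and 782 in Senp6-Mut, while the values of Postn and Thbs3 overlap.

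The summed RPKM of the 8 genes was 4606 and 4194 in WT and 4693 and 4495 in Senp6-Mut, which overlapped. Their share of all reads, which weights long genes more, was higher in both mutant samples. It was 1.82% and 1.74% in WT and 2.05% and 2.02% in Senp6-Mut, with 95% Wilson intervals of 1.82% to 1.83%, 1.74% to 1.75%, 2.05% to 2.06% and 2.01% to 2.02% that cover counting error only. The composition of the sum differed between genotypes. Sparc made up 56.4% and 53.1% of this sum in WT and 46.3% and 45.9% in Senp6-Mut. Thbs1 made up 6.75% and 8.50% in WT and 14.3% and 17.4% in Senp6-Mut.

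Both mutant samples lay above both WT samples for Thbs1, Tnc and Fn1, and below them for Thbs2, Sparc and Tgfbi. Postn and Thbs3 overlapped between genotypes. The background of such separation was high, as 28.3% of the 14123 genes tested had both mutant samples above WT and 19.2% had both below. None of the 8 genes passed an adjusted p of 0.05 in the edgeR quasi-likelihood test, and neither did any of all the genes tested (0.00%), among which the smallest adjusted p was 0.0512. At an unadjusted p under 0.05 there were 3 of the 8 (Thbs1, Tnc and Thbs2), against 15.6% of all genes tested. The median log2 fold change of the 8 genes was −0.078, against 0.0097 over all genes tested. DESeq2 called Thbs1 alone among the 8, as higher in Senp6-Mut, at a background of 3.30% of its 13301 genes called higher and 2.01% called lower. WT replicate 2 was nearer than WT replicate 1 to the mutant mean for 7 of the 8 genes, with Postn the exception, and for 67.9% of all genes tested, on the log2(RPKM + 1) scale.

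**Figure D2:**
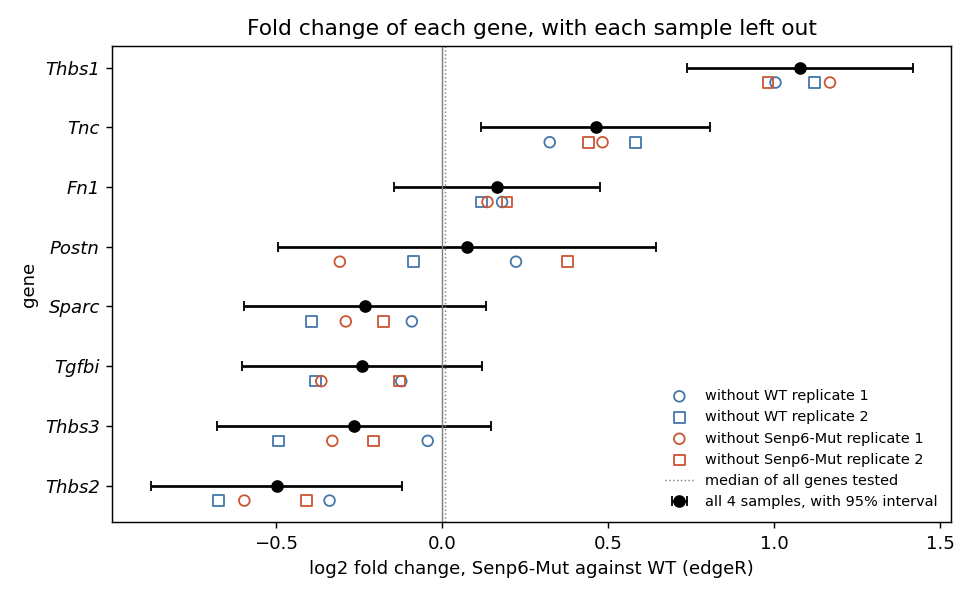
Log2 fold change of Senp6-Mut against WT from edgeR for each of the 8 genes, as black points with the 95% confidence interval of the fit as bars. Open symbols give the value without each sample in turn, and the dotted line marks the median of all genes tested. The intervals of Thbs1 (0.74 to 1.42) and Tnc (0.12 to 0.81) lie above 0 and that of Thbs2 (−0.88 to −0.12) below it, while the other intervals include 0.

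Thbs1, Thbs2 and Thbs3 encode thrombospondins, which bind cells, collagens and proteases. Thrombospondin-1 assembles as a trimer, restrains the growth of blood vessels through its receptor CD36, binds CD47 and can activate latent TGF-β. Thbs1 had 37928 and 54070 reads in WT and 120333 and 128151 in Senp6-Mut. This gave 334 ± 32.2 RPKM in WT and 726 ± 79.8 in Senp6-Mut (mean ± SD, n = 2 each), and the lower mutant sample was 1.88 times the higher WT sample. The fitted difference was 2.11-fold higher in Senp6-Mut (95% confidence interval 1.67 to 2.67), a log2 fold change of 1.08 with SE 0.14. The adjusted p of edgeR was 0.0775, which did not pass the threshold, and the unadjusted p of Thbs1 stood at rank 31 among the genes tested. DESeq2 gave an adjusted p of 6.16e-09. The adjusted p was 0.0416 in a fit blocked by replicate number, which called 0.595% of genes higher and 0.234% lower, and it was 0.0132 when genes with low counts were kept, in a fit that called 1.56%. When any 1 sample was left out, the log2 fold change of Thbs1 was between 0.98 and 1.17 and its adjusted p between 0.000571 and 0.0273. Those fits called 4.77% of genes without WT replicate 1, 20.0% without WT replicate 2, 3.01% without Senp6-Mut replicate 1 and 1.01% without Senp6-Mut replicate 2, and the group left with 1 sample was assumed to vary like the other. Thbs1 was called in 7 of the 12 alternatives, over which its adjusted p ranged from 6.16e-09 to 0.0893.

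Thrombospondin-2 is a close relative of thrombospondin-1 that also forms trimers and binds CD36, but lacks the sequence by which thrombospondin-1 activates TGF-β, and it is known for its part in the shape of collagen fibrils. Thbs2 was at 299 and 251 RPKM in WT and lower, at 211 and 190, in Senp6-Mut. The means were 275 ± 34.3 in WT and 201 ± 14.8 in Senp6-Mut (SD, n = 2 each), and the log2 fold change was −0.50 with SE 0.16 (edgeR adjusted p = 0.208, DESeq2 adjusted p = 0.0671). Without WT replicate 2 the log2 fold change of Thbs2 was −0.67 and its adjusted p 0.00672, in the fit that called 20.0% of genes, while over all 12 alternatives its adjusted p reached 0.902.

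Thrombospondin-3 belongs to the pentameric branch of the family, with COMP, and is known in skeletal maturation. Thbs3 was at 26.9 and 20.8 RPKM in WT and 21.1 and 19.9 in Senp6-Mut, so that mutant replicate 1 lay between the WT samples. Its log2 fold change was −0.27 with SE 0.17 (edgeR adjusted p = 0.528). Without WT replicate 2, Thbs3 had a log2 fold change of −0.49, and without WT replicate 1 its log2 fold change was −0.043, so its size depended on the WT sample kept.

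The balance between thrombospondins was examined as ratios of RPKM within a sample, which do not depend on the scaling between samples. Thbs1 over Thbs2 was 1.04 and 1.42 in WT and 3.17 and 4.11 in Senp6-Mut. The mutant mean of this ratio was 2.96 times the WT mean, from 1.23 to 3.64. Thus Thbs1 and Thbs2 were nearly level in WT replicate 1 and Thbs1 led by a wide margin in both mutant samples. Thbs1 over Thbs3 was 11.6 and 17.1 in WT and 31.7 and 39.4 in Senp6-Mut, also without overlap. It shares Thbs1 with the ratio above and so is not a separate result. Thbs2 over Thbs3, by contrast, was 11.1 and 12.0 in WT and 10.0 and 9.59 in Senp6-Mut, a narrower separation. With 2 samples against 2, the smallest two-sided p that an exact permutation test of a ratio allows is 0.333, which each ratio without overlap has. A ratio of a gene above WT in both mutant samples to a gene below WT in both cannot overlap. Thbs1 over Thbs2 is such a ratio, so its separation adds nothing to that of the separate genes.

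**Figure D3:**
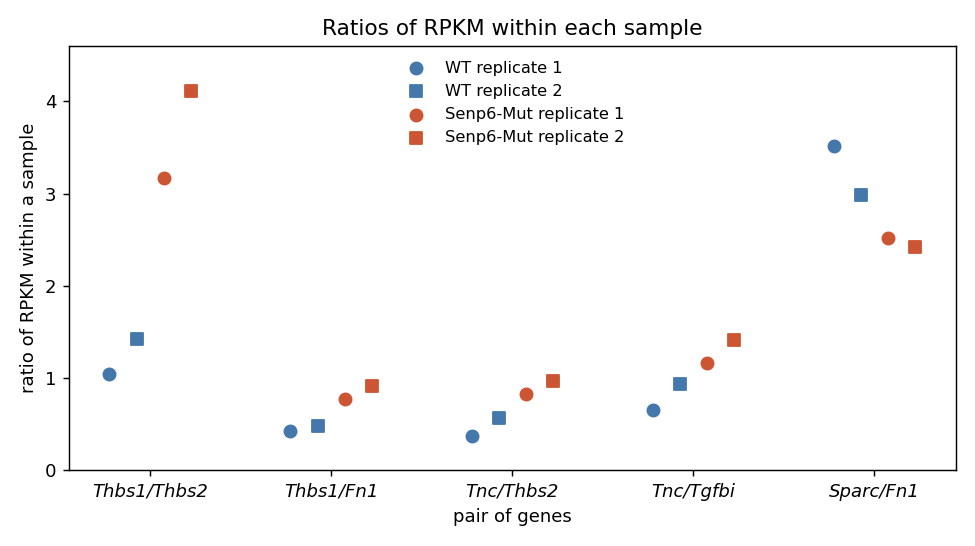
Ratios of RPKM between pairs of the 8 genes within each sample (linear axis from 0), with WT in blue and Senp6-Mut in red. Thbs1 over Thbs2 goes from 1.04 and 1.42 in WT to 3.17 and 4.11 in Senp6-Mut, and Sparc over Fn1 from 3.52 and 2.98 to 2.51 and 2.42.

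Tenascin-C is a matrix protein with multiple arms that weakens adhesion of cells to fibronectin and is made in cartilage condensations, perichondrium and healing tissue. Tnc was at 112 and 141 RPKM in WT and higher, at 174 and 184, in Senp6-Mut. The means were 126 ± 20.8 in WT and 179 ± 6.97 in Senp6-Mut (SD, n = 2 each), with a log2 fold change of 0.46 and SE 0.14 (edgeR adjusted p = 0.202, DESeq2 adjusted p = 0.0850). The log2 fold change of Tnc was 0.58 without WT replicate 2 and 0.32 without WT replicate 1, so its size depended on the WT sample kept. Tnc over Thbs2 within a sample was 0.373 and 0.562 in WT and 0.824 and 0.966 in Senp6-Mut. Tnc over Tgfbi was below 1 in both WT samples, at 0.654 and 0.935, and above it in both mutant samples, at 1.16 and 1.41. Both ratios set a gene above WT against a gene below it, so their separation follows from that of the separate genes.

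The sequence before the start of Tnc and of Thbs2 is shown because these genes lay on opposite sides of WT in the mutant samples. Both stretches are 250 bases upstream of the annotated start in RefSeq (build GRCm38.p6, minus strand in both cases), which is not the build of the deposited files. RefSeq gives 6 of the 8 genes in the table used here, all but Fn1 and Thbs1. Capitals mark letters found in a search of either strand. The search was for the TATA box, written TATAAA, and for the GC box, written GGGCGG. It was also for the CCAAT box and for the AP-1 motif, which in this search was written TGANTCA.
Tnc, chr4:64047016-64047265: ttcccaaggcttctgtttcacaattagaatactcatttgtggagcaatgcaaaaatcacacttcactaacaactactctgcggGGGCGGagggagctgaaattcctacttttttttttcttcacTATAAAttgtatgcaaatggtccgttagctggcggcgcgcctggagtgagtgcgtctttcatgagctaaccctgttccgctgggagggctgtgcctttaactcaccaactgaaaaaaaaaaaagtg
Thbs2, chr17:14694263-14694512: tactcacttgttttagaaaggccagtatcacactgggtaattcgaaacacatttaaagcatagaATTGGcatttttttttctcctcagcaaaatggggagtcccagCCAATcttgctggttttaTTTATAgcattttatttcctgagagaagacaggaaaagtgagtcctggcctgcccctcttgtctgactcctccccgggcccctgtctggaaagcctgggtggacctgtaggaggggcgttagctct
For Tnc the start with the farther upstream position of 2 is shown. Its window held TATAAA 120 bases and GGGCGG 161 bases before the start. Counted from the other start of Tnc, the same letters lay 199 and 240 bases before it. Whether any of the marked letters act as promoter elements was not tested. The Thbs2 window held TATAAA on the other strand 120 bases before the start, and CCAAT at 139 and, on the other strand, at 181 bases. The AP-1 letters were in neither window. Of 32841 promoter windows of the same length, 12.4% held TATAAA, 32.7% GGGCGG, 33.9% CCAAT and 6.75% the AP-1 letters.

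Fibronectin was 864 and 852 RPKM in Senp6-Mut and 738 and 747 in WT. The means of Fn1 were 742 ± 6.66 in WT and 858 ± 8.73 in Senp6-Mut (SD, n = 2 each), so the difference exceeded the spread within groups, yet it was small. The log2 fold change of Fn1 was 0.17 with SE 0.13 (95% confidence interval −0.14 to 0.48, edgeR adjusted p = 0.605). The counts merge the splice forms of fibronectin. Thbs1 over Fn1 was 0.422 and 0.477 in WT and 0.774 and 0.918 in Senp6-Mut.

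Postn and Tgfbi encode periostin and TGFBI, paralogs built from fasciclin domains that bind integrins and collagen. Periostin is made in periosteum and other fibrous tissue and is needed for collagen cross-linking. Postn was at 352 and 300.4 RPKM in WT and 432 and 276 in Senp6-Mut, so the mutant samples lay on both sides of WT. Its log2 fold change was 0.076 with SE 0.24, and it was −0.087 without WT replicate 2 and −0.31 without Senp6-Mut replicate 1, so no direction can be given. Tgfbi was at 171 and 151 RPKM in WT and 149.8 and 131 in Senp6-Mut, where WT replicate 2 and mutant replicate 1 were almost level. Its log2 fold change was −0.24 with SE 0.15 (edgeR adjusted p = 0.513). Postn over Tgfbi was 2.06 and 1.99 in WT and 2.89 and 2.11 in Senp6-Mut.

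SPARC (osteonectin) is a calcium-binding protein that binds collagen and is abundant in bone matrix. Sparc had a mean of 2411 ± 262 RPKM in WT and 2116 ± 77.8 in Senp6-Mut (SD, n = 2 each), with a log2 fold change of −0.23 and SE 0.15 (edgeR adjusted p = 0.533). The mutant samples lay below both WT samples, by a margin smaller than the distance between the WT samples. Sparc over Fn1 was 3.52 and 2.98 in WT and 2.51 and 2.42 in Senp6-Mut. Since Sparc lay below WT and Fn1 above it, this ratio could not overlap and is not a separate result.

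Genes that act with these proteins were taken as 4 lists, of which 76 of 78 genes in the files were tested. The edgeR test called none of them, as it called no gene. Of all genes tested, 28.3% had both mutant samples above WT and 19.2% below, and DESeq2 called 3.30% higher and 2.01% lower. Receptors (integrins, syndecans, CD36, CD47, LRP1 and others) had 13 of 20 genes with both mutant samples above WT and 5 below, and a median log2 fold change of 0.31, while DESeq2 called 2 higher and 2 lower. The largest differences were those of Itgb6, an integrin subunit with only 0 to 22 reads in a sample, and of Cd36, the thrombospondin receptor. Cd36 was low, at 4.58 and 1.26 RPKM in WT and 0.425 and 0.735 in Senp6-Mut (log2 fold change −2.39, SE 0.63, edgeR adjusted p = 0.154). Thus Cd36 was lower in the samples in which Thbs1 was higher, and a link between them was not tested. Cd47, whose product also binds thrombospondin-1, overlapped between genotypes (log2 fold change −0.075, SE 0.13).

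Paralogs and other matricellular proteins had 6 of 18 genes above and 4 below, shares near the 28.3% and 19.2% of all genes tested, with a median of −0.22, and DESeq2 called 3 higher and 1 lower (3.30% and 2.01% of all genes). COMP is the pentameric cartilage thrombospondin, and Comp was at 73.6 and 38.6 RPKM in WT and 11.6 and 24.9 in Senp6-Mut (log2 fold change −1.68, SE 0.43, edgeR adjusted p = 0.142). Sparcl1, the nearest relative of Sparc in this list, was at 7.79 and 3.53 RPKM in WT and 2.15 and 1.49 in Senp6-Mut (log2 fold change −1.68, SE 0.41, adjusted p = 0.136). Ctgf, which encodes the CCN2 protein and is named after its values were seen, was at 39.5 and 59.3 RPKM in WT and 119.98 and 174 in Senp6-Mut (log2 fold change 1.53, SE 0.24, edgeR adjusted p = 0.0833). TGF-β ligands, latency proteins, receptors and targets had 10 of 21 genes above and 3 below, against the same shares of all genes, with a median of 0.16, and DESeq2 called 4 higher and 1 lower. Lrrc32, whose product holds latent TGF-β at the cell surface, was at 34.0 and 75.4 RPKM in WT and 119 and 108 in Senp6-Mut (log2 fold change 1.02, SE 0.33, edgeR adjusted p = 0.212).

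Genes of matrix assembly and cleavage had 2 of 17 above and 6 below (28.3% and 19.2% of all genes tested), with a median of −0.22. DESeq2 called 1 in each direction (3.30% higher and 2.01% lower of all its genes). Tll1, a tolloid-like protease, was at 1.22 and 2.21 RPKM in WT and 5.43 and 5.56 in Senp6-Mut (log2 fold change 1.64, SE 0.27, edgeR adjusted p = 0.0833). Ctsk, which encodes the collagen-degrading cathepsin K, was at 77.3 and 61.0 RPKM in WT and 38.3 and 34.8 in Senp6-Mut (log2 fold change −0.96, SE 0.17, edgeR adjusted p = 0.0885). With the replicate block, 3 genes of the 4 lists were called, all as higher in Senp6-Mut, among them Ctgf and Tll1. That fit called 0.595% of all genes tested higher and 0.234% lower.

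**Figure D4:**
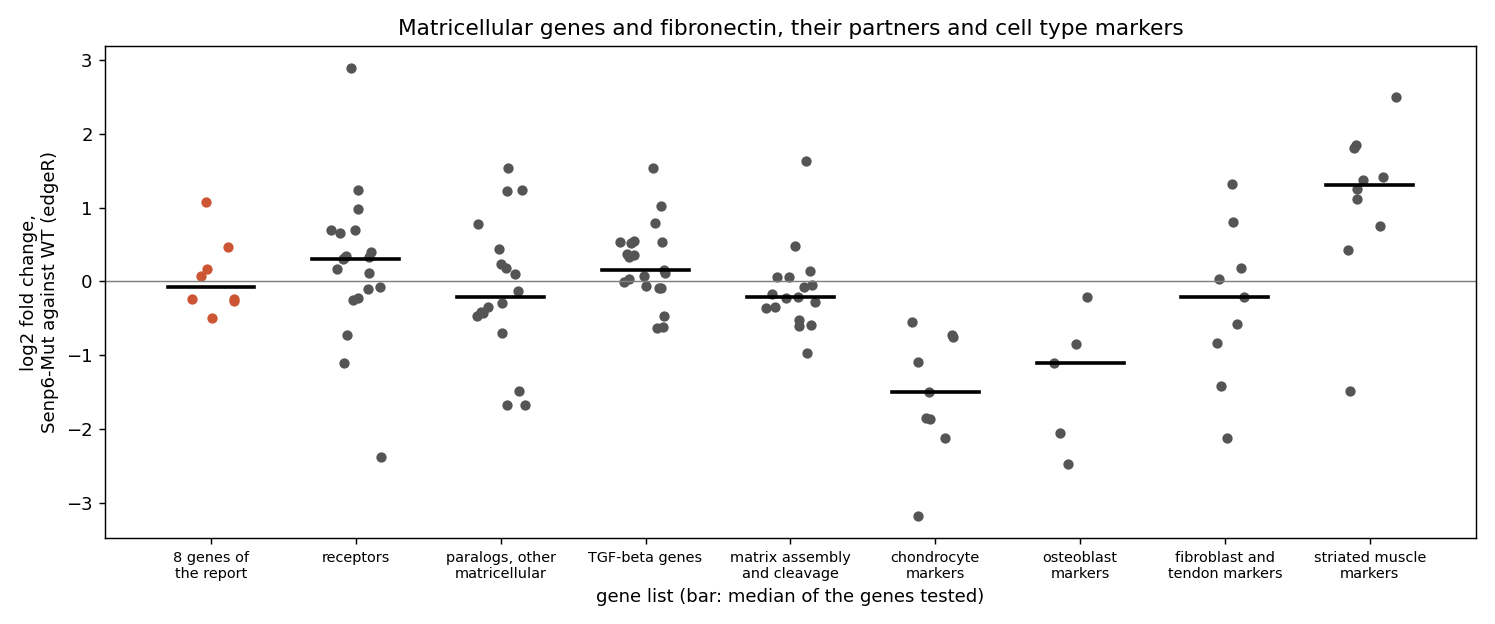
Log2 fold change of Senp6-Mut against WT from edgeR for each gene tested among the 8 genes, their partner lists and the marker lists of 4 cell types, with a bar at the median of each list. Points of the 8 genes are red, and the medians run from −1.50 for chondrocyte markers to 1.31 for striated muscle markers.

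Markers of the cell types that a rib culture may hold differed along with the genotype. Of all genes tested, 28.3% had both mutant samples above WT and 19.2% had both below. DESeq2 called 3.30% of its genes higher and 2.01% lower. Chondrocyte markers had both mutant samples below WT for 9 of 9 genes tested, with a median log2 fold change of −1.50, and their summed RPKM was 784 and 826 in WT and 399.6 and 521 in Senp6-Mut. The widest differences were those of Matn1 (log2 fold change −3.18) and Col11a2 (−2.12), and DESeq2 called 8 of the 9 lower. Osteoblast markers were below WT in 5 of 5 genes tested (median −1.11), Ibsp and Alpl the most. The summed RPKM of the 8 markers found was 187 and 83.3 in WT and 31.9 and 53.5 in Senp6-Mut. Bglap, Bglap2 and Dmp1 had too few reads to be tested. Their highest counts, of 3, 11 and 14 reads, were in Senp6-Mut replicate 2. Fibroblast and tendon markers were mixed, with 3 of 9 above and 3 below (median −0.21, summed RPKM 2080 and 1622 in WT and 1806 and 1610.4 in Senp6-Mut), and Dpt and Dcn had the widest differences. Striated muscle markers had 7 of 10 above and 0 below (median 1.31), summing to 98.4 and 27.0 RPKM in WT and 157 and 179.5 in Senp6-Mut, with Myod1 and Actc1 the widest. Macrophage markers (summed RPKM 9.88 to 18.9) had a median of −0.53 and endothelial markers (0.952 to 1.70) of −0.88, over 5 genes tested each, and no erythroid marker passed the filter. The part of these differences in the levels of the 8 genes was not tested, and fewer cells of a type and less RNA per cell cannot be told apart in these bulk samples.

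The genes with the pattern most like that of Thbs1 and Thbs2, the 2 genes of the 8 with the largest fold change, were sought by distance of the mean-centred log2(RPKM + 1) over the 4 samples, among 11631 genes. For Thbs1, whose own values spanned 1.33 on this scale, they were Htr1b, 2810474O19Rik and Map3k7cl, at distances of 0.0741, 0.0798 and 0.108. Htr1b was low, at 1.31 and 1.55 RPKM in WT and 3.97 and 5.00 in Senp6-Mut. Map3k7cl was also low, at 1.99 and 2.08 RPKM in WT and 5.04 and 6.02 in Senp6-Mut. The added 1 shrinks differences at such levels, so a small distance to Thbs1 does not mean an equal fold change. For Thbs2, which spanned 0.65, they were Ebp, Wash and Sept6, at 0.0218, 0.0469 and 0.0495. With 4 points per gene such likeness is a description only.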

How the data were processed

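RNA was enriched with oligo(dT), primed with random hexamers and sequenced by a service, and the labels do not state that strand was kept. For each sample the authors deposited read counts by gene, not normalized, the RPKM (the count scaled by listed gene length and by all reads on genes, which recomputation from the counts gave again), and the percent of gene length covered. The submitters' processing notes name the mm9 build and SAMtools. The aligner and counting tool are not given in the sources used here. A gene absent from a sample's table was given a count of 0.

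Counts were tested with edgeR 4.0.16 (R 4.3.3, glmQLFit with robust estimation, glmQLFTest, TMM factors 0.966 to 1.03) on the 14123 genes that reached 10 counts in 2 or more samples. Values of p were adjusted by Benjamini-Hochberg and the threshold was 0.05. The alternatives were DESeq2 1.42.0, other size factors, other filters, limma 3.58.1 on log2(RPKM) with pseudocounts of 1 and 0.1, a replicate block, and omission of each sample. Scripts were tested on simulated data. Replicates differed by more than sampling noise (chi-square over degrees of freedom 48.6 in WT and 23.7 in Senp6-Mut).

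The genes, the pairs for ratios and the lists were chosen with earlier results of these data known. Text names all 8 genes, Senp6, genes of each list past the threshold and the 2 with the largest absolute log2 fold change, and the 3 nearest genes in pattern, with a mean RPKM of at least 1. A gene that this rule names is not reported here. With 1746 or more reads per gene and sample for the 8 genes, the 2 samples per group limit the precision more than the depth.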

Additional observations from a re-analysis of the deposited data

How the results depend on the processing

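Without any change of setting no gene was called in either direction. All genes called higher and lower were 439 and 267 with DESeq2, 6 and 2 with library totals alone, 225 and 61 without a filter on low counts, and 84 and 33 with the replicate block, and 0 with the other size factors, the stricter filter and both limma fits. Leaving out 1 sample gave 96 to 1331 higher and 47 to 1492 lower, the most without WT replicate 2. Of the 8 genes, 1 (Thbs1) was called higher with DESeq2, without a filter and with the block, and 1 to 2 when a sample was left out, while 0 to 2 were called lower (Thbs2 and Thbs3, without WT replicate 2). Of the partner and paralog genes, 10 were called higher and 5 lower with DESeq2, 4 and 1 without a filter, and 3 and 0 with the block, and leaving out a sample gave 2 to 15 higher and 1 to 16 lower. The median log2 fold change of the 8 genes ranged from −0.30 to 0.069 when a sample was left out. Postn reversed without WT replicate 2 (−0.087) and without Senp6-Mut replicate 1 (−0.31), over a range of −0.31 to 0.38. No other of the 8 genes changed direction under any alternative run. Whether the shared replicate numbers pair the samples is not known. The correlation of the deviations between genotypes across genes was −0.0422, but with 2 samples per group it cannot settle this. Apart from the calls above, the block changed no call of the 8 genes. The cause of these differences was not tested. Other size factors moved the median of all log2 fold changes by −0.016 (RLE) and 0.042 (library totals).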
